A study of Mus musculus with 10 samples.

Results

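The 33 genes described here are imprinted genes of the mouse, each taken with its RefSeq span and 2 kb on either side, and the measurement is 5-carboxylcytosine (5caC) at single CG positions in embryonic stem cells. The members are a list of gene names, drawn up with earlier results of these data known but using no measured value as a rule, and all 33 were found among 49550 RefSeq genes, 1 of them (Nespas) under the current symbol Gnasas1. Their extended spans covered 1693 kb and held 817 of the 922427 CG positions listed in the study. A listed position was 1 with a coverage value in at least 1 group, and 32 of the 33 genes had at least 1. The retrogene Mcts2 had none.

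Imprinted genes are transcribed mainly from a single parental allele, and most lie in domains governed by a differentially methylated region whose methylation was set in the egg or the sperm. In cells that have these imprints, the zinc-finger protein ZFP57 binds the methylated motif TGCCGC at such regions and recruits TRIM28, which protects the methylation during development. TET dioxygenases oxidise 5-methylcytosine stepwise to 5caC, and the glycosylase TDG excises 5caC, so that 5caC builds up at CGs under oxidation when TDG is missing.

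The study compared wild-type (wt) embryonic stem cells with cells labelled Tdg, each cultured on gelatin in serum medium with LIF or in the same medium with 3 µM CHIR99021, a GSK3 inhibitor, and 1 µM PD0325901, a MEK inhibitor (serum-2i). The label names the gene without the kind of alteration, and nothing in it tells whether the cells are 1 clone. Each of these 4 groups had 2 technical replicates and 1 deposited value per position, read here as their mean because all values are multiples of 0.5, which leaves replicate spread unknown, so no p-value is given. The remaining group, 2 samples of serum-grown cells lacking all Tet genes, served as the negative control and is not analysed here.

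The members' share of each group's listed sites was small and nearly equal in both serum-2i groups. In serum wt cells 5 of 8685 listed sites (0.0576%) lay in the imprinted genes. In serum-2i wt cells they were 86 of 110753 (0.0777%), in serum Tdg cells 414 of 374488 (0.111%) and in serum-2i Tdg cells 536 of 689303 (0.0778%). The serum Tdg share was the highest and the serum wt share, which rests on 5 sites, the lowest. Sites entered the table only from a mean coverage of 3 in serum wt, 4 in serum-2i wt and 6 in both Tdg groups, so an unlisted position has an unknown value, not 0. The summed listed coverage, which stood in for depth, was 43172 in serum wt, 890158.5 in serum-2i wt, 7486660 in serum Tdg and 12348368 in serum-2i Tdg.

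Most member positions were listed in 1 group, as were most positions of the study. Of the 817 positions, 612 were listed in 1 group, 186 in 2, 19 in 3 and none in all 4. Over the whole study 922427 positions held 1183229 listed values, so most were listed in 1 group there too. The 2 Tdg groups shared 174 positions, which was 42.0% of the serum Tdg sites (95% Clopper-Pearson interval 37.2 to 46.9) and 32.5% of the serum-2i Tdg sites (28.5 to 36.6). Over all listed sites the same shares were 52.8% and 28.7%. Of the 86 serum-2i wt sites, 47 (54.7%, 43.5 to 65.4) were also listed in serum-2i Tdg cells, against 49.1% of all serum-2i wt sites. These intervals, and all that follow, cover counting error only, since reads copied by PCR and carrying no molecular identifier can stem from the same molecule.

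To compare groups of unlike depth, a gene's summed coverage was divided by the group's summed coverage, and the log2 ratio of these shares was taken with an exact conditional 95% interval. A gene was called higher or lower where the shares differed at least 2-fold and the interval excluded no difference. All member sites together took a smaller share in serum-2i Tdg than in serum Tdg cells, with a log2 ratio of -0.53 (-0.56 to -0.49), that is 0.695-fold. Restricted to sites within 1 kb of a start or span end, the log2 ratio was -2.30. This restriction was applied to members only, here and below, so its values have no counterpart over all genes. Over protein-coding genes, too, sites within 1 kb of starts were 14.6% of serum Tdg and 4.80% of serum-2i Tdg sites. The sum over all member sites for Tdg against wt cells in serum-2i had a log2 ratio of -0.15 (-0.22 to -0.07), and with median-ratio scaling it was 0.03. The media in wt cells gave 0.45 (0.05 to 0.88), and Tdg against wt in serum gave 0.83 (0.44 to 1.26), both resting on 25.5 units of coverage in serum wt.

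Gene by gene, ratios were read for the 23 members whose summed coverage averaged at least 20 over the 4 groups. Between the media in Tdg cells, 22 of these had coverage on both sides, of which 5 had a higher share in serum-2i, 8 a lower share and 9 lay between. Among all 22358 genes kept in this way, 27.3% were called higher and 27.4% lower, and the median log2 ratio was -0.01 over the members and -0.01 over all genes. Without the coverage minimum, 27 members had listed sites in both media, with 5 higher, 10 lower and 12 between; 4 had sites in serum-2i Tdg alone, 1 in serum Tdg alone and 1 in neither. The spread of the members kept was wide, from -4.75 for Dio3 to 3.73 for Kcnq1ot1. In the genotype comparison in serum-2i, 18 members had coverage on both sides, with 2 higher in Tdg cells, 2 lower and 14 between. There the background was 12.8% higher and 21.2% lower of 18534 genes, and the medians were -0.44 over the members and -0.17 over all. The serum-2i Tdg group enters both comparisons.

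**Figure D1:**
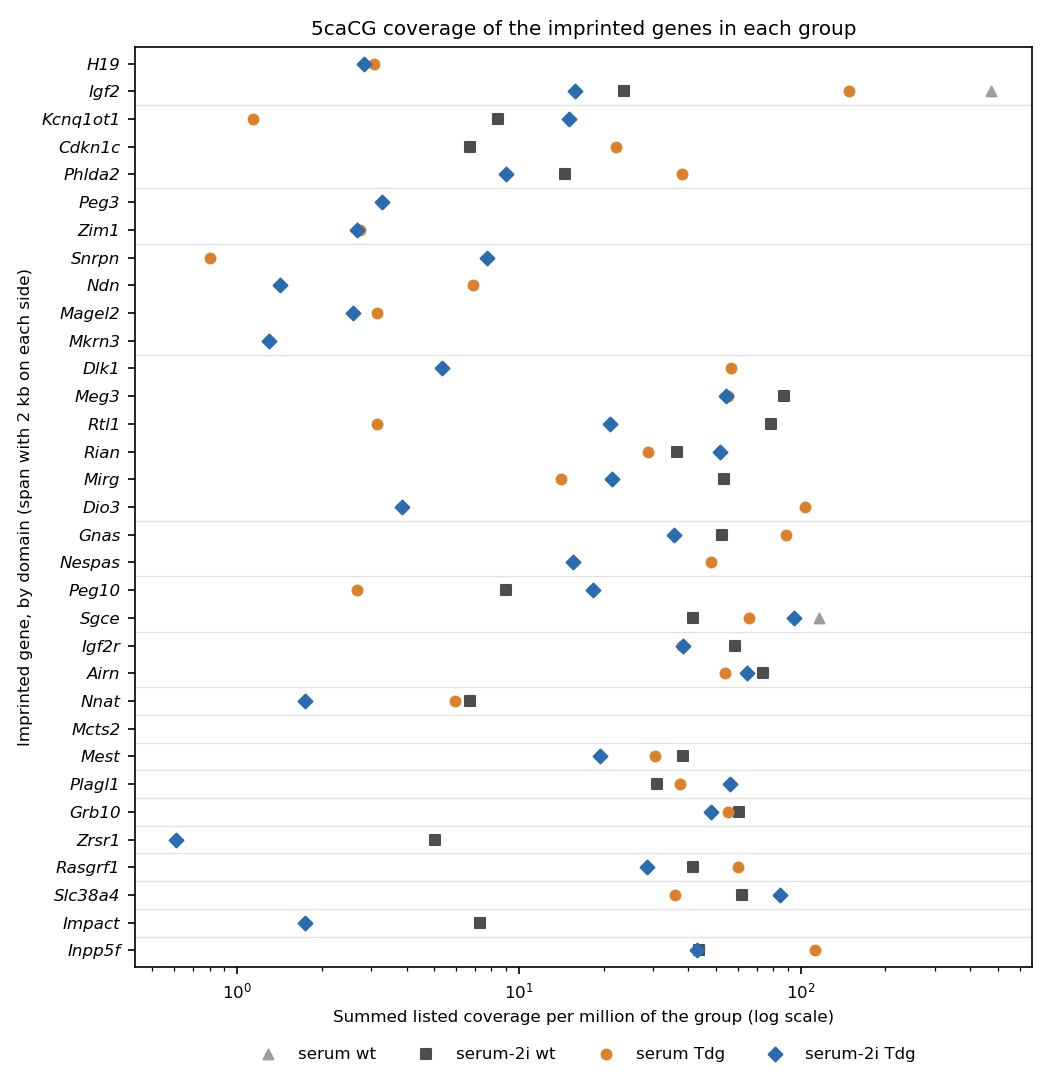
Summed listed coverage of each imprinted gene, scaled to 1000000 units of its group's listed coverage (x axis, log scale), with genes grouped by domain on the y axis and 1 symbol per group; a missing symbol means no listed site. Igf2, Dlk1 and Dio3 have their serum Tdg symbol far to the right of the serum-2i Tdg symbol, and Mcts2 has no symbol.

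**Figure D2:**
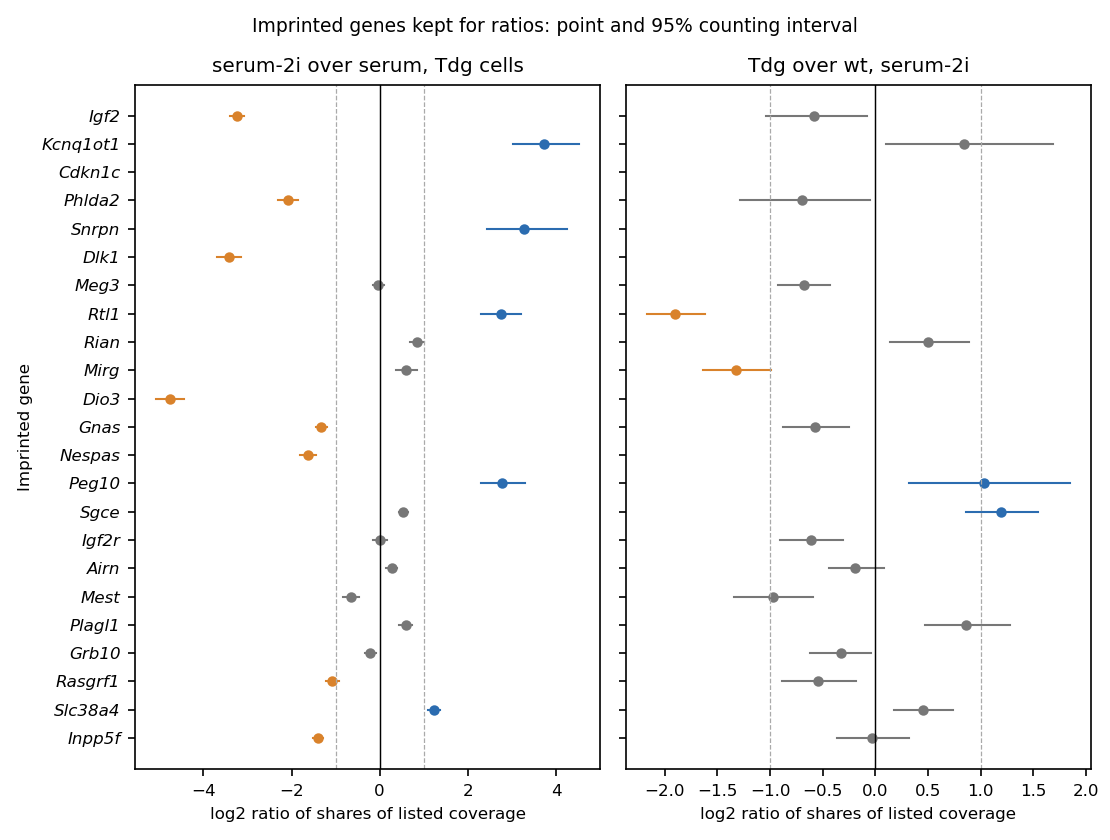
Log2 ratios of coverage shares for the 23 genes kept, serum-2i over serum in Tdg cells on the left and Tdg over wt in serum-2i on the right, with dashed lines at 2-fold. Points are ratios, bars are 95% counting intervals, blue marks higher, orange lower and grey between; genes without listed coverage on both sides have no point.

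Among the genes kept, the median ratio between the media was lowest for short members, as for short genes in general. For the 2 kept members of under 10 kb with a ratio, Dio3 and Phlda2, the median of the log2 ratios was -3.42, against -0.67 over 8211 genes of that length. Cdkn1c, also short and kept, had a coverage of 166.5 in serum Tdg and no listed site in serum-2i Tdg, so it had no ratio. Short members below the coverage minimum had -0.12 (H19), -0.28 (Magel2), -1.77 (Nnat) and -2.28 (Ndn). The minimum can keep a short gene for its coverage in 1 group, so the value of -3.42 describes Dio3 and Phlda2 and not short members in general. For 10 to 30 kb the medians were -1.14 over 6 members and -0.12 over 6622 genes. For 30 to 100 kb they were 0.56 over 10 members and 0.39 over 5128 genes, and for longer spans 0.03 over 4 members and 0.99 over 2397 genes.

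The Igf2 gene, which encodes a paternally expressed fetal growth factor, had the most sites and the highest summed coverage of any member in serum Tdg cells. Within its extended span (chr7:142650768-142666816 without flanks, GRCm38) there were 4 sites summing to 20.5 in serum wt, 3 summing to 21 in serum-2i wt, 49 summing to 1113 in serum Tdg and 18 summing to 195 in serum-2i Tdg. Both serum groups thus had far more of their coverage here than the serum-2i groups. The log2 ratio between the media was -3.23 (-3.39 to -3.08) in Tdg cells and -4.33 (-4.99 to -3.67) in wt cells. In wt cells 65.3% of the 4435 genes compared were lower in serum-2i and 3.74% higher, so the direction in wt cells was the common one. Tdg against wt gave -0.58 (-1.04 to -0.08) in serum-2i and -1.68 (-2.12 to -1.19) in serum, where 57.7% of 4986 genes were lower and 3.71% higher in Tdg cells. The serum-2i genotype ratio was not stable, at -1.55 outside other gene spans and -3.24 within 1 kb of starts or span ends, both called lower, and 0.00 without the highest site. Igf2 had 4 of the 5 member sites of the serum wt group, and of its 56 positions 21 lay in the antisense gene Igf2os, whose signal cannot be told apart from that of Igf2 in a table without strand.

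The serum Tdg sites of Igf2 fell into dense stretches. A run of 11 sites in 400 bp (chr7:142653633-142654032) summed to 325 in serum Tdg, with 3 sites summing to 27 in serum-2i Tdg. A second of 7 sites in 121 bp (chr7:142655668-142655788) summed to 211 against 25 over 2 sites, and the last of 8 sites in 683 bp (chr7:142664501-142665183) to 265 against 76 over 6 sites. In all 3 the serum value was the higher. The single position chr7:142653940 was listed in 3 groups, at 3.5 in serum wt, 53.5 in serum Tdg and 7.5 in serum-2i Tdg, and was the only member position shared by serum wt and both Tdg groups.

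One Igf2 promoter carried 4 listed CGs, the most of any member promoter window, and is shown for that reason. The sequence is the RefSeq window of 250 bases before to 50 bases after a start of Igf2 (chr7:142661222-142661521, minus strand, GRCm38.p6), read 5′ to 3′, with the listed CGs in capitals:
Igf2: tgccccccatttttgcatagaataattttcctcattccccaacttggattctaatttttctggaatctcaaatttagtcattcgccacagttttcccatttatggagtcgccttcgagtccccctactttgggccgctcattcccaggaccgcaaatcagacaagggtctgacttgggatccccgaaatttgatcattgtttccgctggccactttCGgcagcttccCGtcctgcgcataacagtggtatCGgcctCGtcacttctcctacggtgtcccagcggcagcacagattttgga
The 4 listed CGs lay 34 and 23 bases before the start, at the start itself and 6 bases after it. Their coverage in serum Tdg cells was 39.5, 14.5, 20 and 10 in that order, and only the first was listed in serum-2i Tdg cells, at 10. The other 10 CGs of the window were listed in no group.

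Its neighbour H19, a maternally expressed noncoding RNA, had only 2 sites (chr7:142575530-142578146 without flanks). They summed to 23 in serum Tdg and 35 in serum-2i Tdg and were unlisted in both wt groups. The log2 ratio between the media was -0.12 (-0.67 to 0.45), so no difference was detectable at this depth. Over the whole 95.3 kb from H19 to Igf2, 11 serum Tdg and 14 serum-2i Tdg sites lay outside both extended spans, and the log2 ratio of the interval was -2.31.

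In the Kcnq1 domain, Kcnq1ot1 had more coverage in serum-2i Tdg cells, and the members Cdkn1c and Phlda2 had more in serum Tdg cells. Imprinted genes of the region outside the set had media ratios on both sides. Nap1l4 had 2.05, Slc22a18 -1.19 and Kcnq1, which lay between, -0.27. The gene Kcnq1ot1 (chr7:143213111-143296547), a paternally expressed antisense RNA, had no site in serum wt, 1 of 7.5 in serum-2i wt, 1 of 8.5 in serum Tdg and 14 summing to 186.5 in serum-2i Tdg. Its log2 ratio between the media was 3.73 (3.03 to 4.53), and between genotypes in serum-2i 0.84 (0.10 to 1.69), with -0.09 for a flank of 5 kb. All 14 positions lay within the span of Kcnq1 as well, so they cannot be assigned to Kcnq1ot1 rather than to its host.

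The other 2 members of this domain had more coverage in serum Tdg than in serum-2i Tdg cells. Cdkn1c (chr7:143458339-143461059), the cyclin-dependent kinase inhibitor p57, had 1 site of 6 in serum-2i wt, 12 summing to 166.5 in serum Tdg and none in serum-2i Tdg. It was the only member with listed serum Tdg sites and none in serum-2i Tdg, and no ratio was taken. Of its 12 serum Tdg sites, 3 lay in the span itself and the others in the flanks. Phlda2 (chr7:143501545-143503145), a pleckstrin-homology protein that limits placental growth, had 2 sites summing to 13 in serum-2i wt, 17 summing to 285 in serum Tdg and 6 summing to 111 in serum-2i Tdg. Its log2 ratio was -2.08 (-2.31 to -1.86) between the media, and -1.24 (-1.42 to -1.07) with a flank of 5 kb. Of its sites, 4 of 17 in serum Tdg and 1 of 6 in serum-2i Tdg lay in the span itself. By sites per kb in serum Tdg cells, Phlda2 stood at percentile 98.3 of 21627 protein-coding genes, Igf2 at 97.0 and Cdkn1c at 94.2.

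The Dlk1-Dio3 domain held both the lowest ratio and several genes that did not follow it. Dlk1 (chr12:109452485-109463336), a membrane ligand related to Notch ligands, had no wt site, 27 summing to 425 in serum Tdg and 5 summing to 66 in serum-2i Tdg, a log2 ratio of -3.41 (-3.68 to -3.14). Dio3 (chr12:110279230-110281097), the deiodinase that inactivates thyroid hormone, likewise had no wt site, 35 summing to 777 in serum Tdg and 4 summing to 47.5 in serum-2i Tdg. At -4.75 (-5.07 to -4.45) its ratio was the lowest of all members, and its 5.96 sites per kb in serum Tdg placed it at percentile 99.7 of protein-coding genes. These are the outermost genes of the domain, and both are expressed from the paternal allele.

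**Figure D3:**
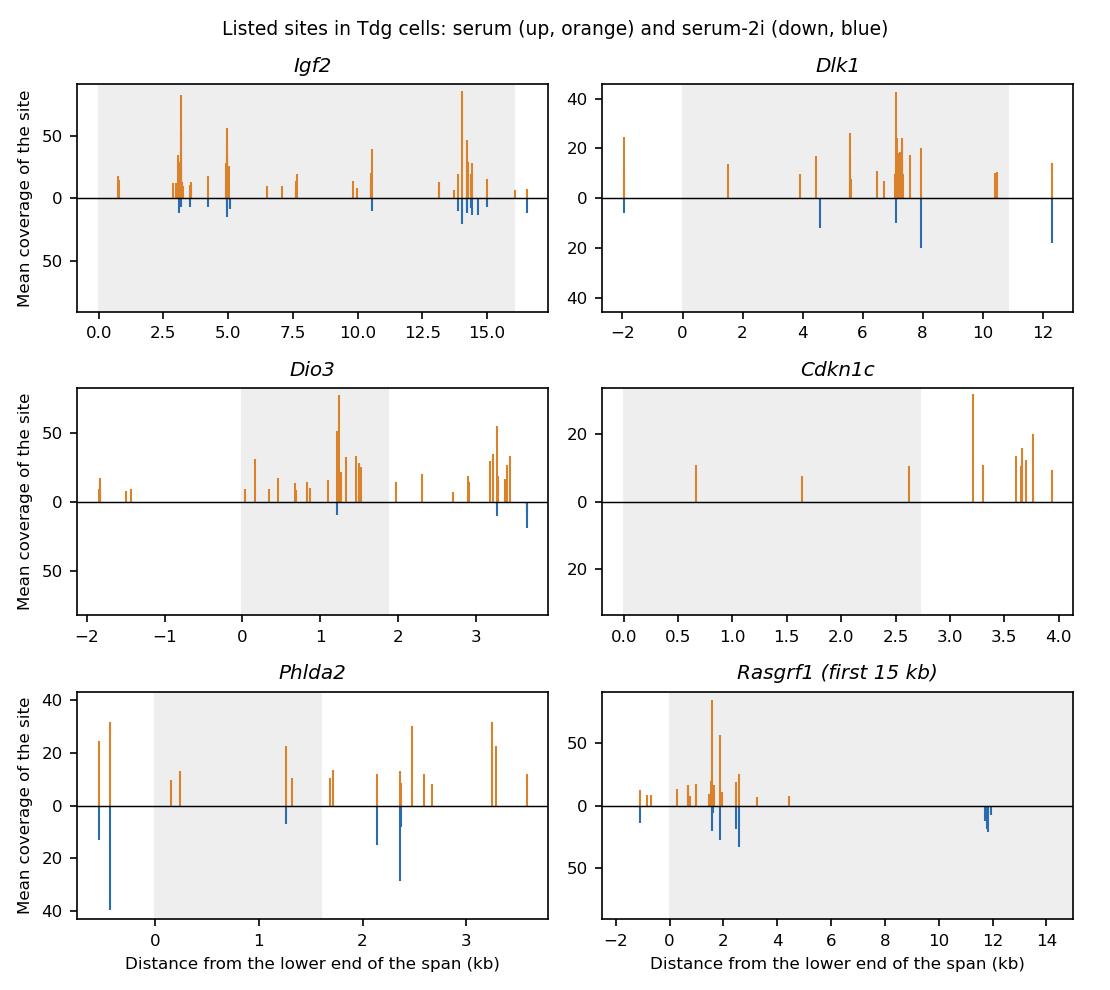
Mean coverage of each listed site (y axis) against distance from the lower end of the RefSeq span (x axis, kb), with serum Tdg drawn upward and serum-2i Tdg downward; the grey band is the span, and Igf2, Cdkn1c and Phlda2 run from right to left. Serum sites cluster in Igf2, Dlk1, Dio3 and the first 2 to 3 kb of Rasgrf1, and Cdkn1c has no downward line.

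Dense runs marked both genes. In Dlk1 a run of 12 serum Tdg sites spanned 258 bp (chr12:109459575-109459832) with a summed coverage of 210.5, against 1 site of 10 in serum-2i Tdg. In Dio3 a run of 9 sites in 424 bp summed to 303.5 against 9.5, and 1 of 8 sites in 257 bp to 231 against 10.5. In each of these runs 1 site was listed in serum-2i Tdg.

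For the maternally expressed noncoding RNAs between them the media differed less. Meg3 (chr12:109540996-109571729) had 8 sites summing to 77.5 in serum-2i wt, 19 summing to 414.5 in serum Tdg and 34 summing to 670 in serum-2i Tdg, a log2 ratio between the media of -0.03 (-0.16 to 0.10). Rian (chr12:109603945-109661716), a host of small nucleolar RNAs, had 4 summing to 32.5, 14 summing to 215.5 and 35 summing to 639.5 in the same order, a ratio of 0.85 (0.69 to 1.01). Mirg (chr12:109734981-109749458), a host of microRNAs, had 5 summing to 47.5, 7 summing to 105.5 and 13 summing to 264, a ratio of 0.60 (0.37 to 0.84). All 3 fell short of a 2-fold difference, and none had a serum wt site. The direction of Mirg was not stable: within 1 kb of starts or span ends its ratio was -1.49 (-1.82 to -1.16) and called lower, and by number of sites it was 0.01. All 7 serum Tdg sites of Mirg lay in its flanks and none in its span, so without flanks it had no media ratio. Between genotypes in serum-2i, Meg3 had -0.68 (-0.92 to -0.43), called lower from a coverage of 10 upward (-1.66) or within 1 kb of starts or span ends (-1.77), and Rian had 0.50 (0.14 to 0.89), called higher without its highest site (1.22).

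Rtl1 (chr12:109564900-109604418), a paternally expressed gene derived from a retrotransposon, had 7 sites summing to 70 in serum-2i wt, 2 summing to 23.5 in serum Tdg and 19 summing to 260 in serum-2i Tdg. It was higher in serum-2i in Tdg cells, with a log2 ratio of 2.75 (2.31 to 3.21), but with a flank of 5 kb the ratio was 1.02 (0.87 to 1.18). Against wt cells in serum-2i it was lower, at -1.90 (-2.17 to -1.62), as was Mirg at -1.32 (-1.64 to -0.99), and these were the 2 members called lower in that comparison. Counted by sites, neither reached the call (-1.20 and -1.26, with intervals that include no difference). Rtl1 shared 5 positions with Meg3 and 3 with Rian, since the spans with flanks overlap.

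Meg3 held positions listed at high coverage in both media. Its run of 6 sites in 189 bp (chr12:109553293-109553481) summed to 214 in serum Tdg and 155 in serum-2i Tdg, with all 6 sites listed in both. Position chr12:109560488 had 14.5 in serum-2i wt, 36.5 in serum Tdg and 121 in serum-2i Tdg, and the nearby chr12:109560400 had 14, 33 and 60.5. Both were unlisted in serum wt.

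Most serum-2i sites of the domain lay outside its 6 genes, as did most of its length. The 833 kb from Dlk1 to Dio3 held 4 sites in serum wt, 89 in serum-2i wt, 194 in serum Tdg and 429 in serum-2i Tdg, of which 4, 67, 91 and 326 were outside the extended spans. The longest of the 6 extended spans was 61.8 kb (Rian), so most of the 833 kb lay outside them too. The density in serum-2i Tdg was 51.5 sites per 100 kb, against 24.8 over chromosome 12, and in serum Tdg 23.3 against 12.2. Summed over the 6 genes, the log2 ratio between the media was -0.79 (-0.86 to -0.73), and summed over the whole interval it was 0.48 (0.43 to 0.52), so the sign turned with the choice of region. The whole interval was examined after the values were seen.

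**Figure D4:**
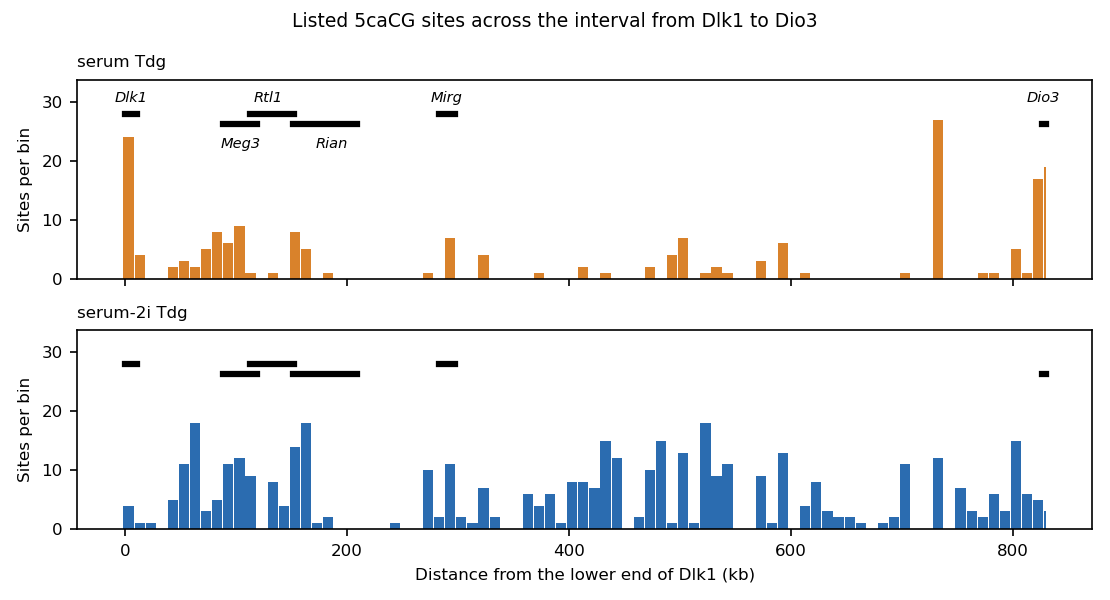
Number of listed sites in successive bins of 10 kb (the last is 2.61 kb) from Dlk1 to Dio3, by distance from the lower end of Dlk1 (x axis, kb), in serum Tdg cells (top) and serum-2i Tdg cells (bottom); black bars are the gene spans. Serum sites concentrate at Dlk1, at a bin 733 kb away with 27 sites, and at Dio3, while serum-2i sites occur in more of the bins, with a gap of 5 empty bins from 193 to 233 kb.

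The microRNA hairpins of these domains carried listed CGs at about the share of all hairpins. RefSeq hairpins within the imprinted domains numbered 74, of which 58 lay between Dlk1 and Dio3, and they held 175 distinct CGs. In any group, 9 of these (5.14%, 2.38 to 9.54) were listed, in 7 hairpins, against 6.18% of the 1764 CGs in all 1005 RefSeq hairpins on these chromosomes. In serum Tdg 3 were listed (1.71%, against 3.80% over all hairpins) and in serum-2i Tdg 9 (5.14%, against 3.40%). The 3 below are shown because they had a listed CG in serum Tdg and serum-2i Tdg alike, with listed CGs in capitals and RNA letters as in RefSeq:
Mir341: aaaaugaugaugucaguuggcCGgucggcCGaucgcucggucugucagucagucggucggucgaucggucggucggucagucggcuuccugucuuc
Mir300: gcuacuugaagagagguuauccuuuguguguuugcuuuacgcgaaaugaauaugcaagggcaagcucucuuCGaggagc
Mir483: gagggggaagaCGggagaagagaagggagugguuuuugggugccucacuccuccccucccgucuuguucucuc
In Mir341 (chr12:109611500-109611595) 2 of 12 CGs were listed, 1 at 12.5 in serum Tdg and both in serum-2i Tdg, at 8 and 16. In Mir300 (chr12:109724313-109724391) 1 of 3 CGs was listed, at 4.5 in serum-2i wt, 23 in serum Tdg and 60.5 in serum-2i Tdg. In Mir483 (chr7:142654924-142654996, minus strand), which lies inside Igf2, 1 of 2 CGs was listed, at 17.5 in serum Tdg and 7.5 in serum-2i Tdg. The listed CG was thus higher in serum-2i in Mir300 and higher in serum in Mir483. The other 4 hairpins with listed CGs were Mir770, Mir3070a, Mir1188 and Mir370, each listed in serum-2i Tdg and in no other group.

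At the Gnas locus, sense and antisense genes were both lower in serum-2i. Gnas (chr2:174284320-174346744), the stimulatory G-protein alpha subunit, had 7 sites summing to 47 in serum-2i wt, 35 summing to 664 in serum Tdg and 31 summing to 438 in serum-2i Tdg, a ratio between the media of -1.32 (-1.45 to -1.20). Nespas (chr2:174281237-174295436), its antisense RNA, had no wt site, 19 summing to 361 in serum Tdg and 12 summing to 192.5 in serum-2i Tdg, a ratio of -1.63 (-1.81 to -1.45). They are not independent, since 18 positions lay in both spans. Among the shared positions, chr2:174283266 had the highest coverage of the locus, 91.5 in serum Tdg and 62.5 in serum-2i Tdg.

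Peg10 and Sgce, paternally expressed neighbours, were higher in serum-2i Tdg cells than in serum-2i wt cells, and were the only 2 members called so. Peg10 (chr6:4747306-4760517), a gene of retrotransposon origin needed in the placenta, had 1 site of 8 in serum-2i wt, 2 summing to 20 in serum Tdg and 13 summing to 227 in serum-2i Tdg. Its log2 ratio was 2.78 (2.31 to 3.29) between the media and 1.03 (0.32 to 1.85) between genotypes. The genotype call ended when the flanks were left out (0.84) or sites were counted (1.06, with an interval that includes no difference), and the media call ended when sites were counted (1.82). Both serum Tdg sites of Peg10 lay in its flanks, so without flanks no media ratio could be taken. Peg10 and Sgce are not independent, since 3 positions lay in the extended spans of both.

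Sgce (chr6:4674350-4747204), epsilon-sarcoglycan, was 1 of the 2 members with a serum wt site. It had 1 of 5 in serum wt, 5 summing to 37 in serum-2i wt, 26 summing to 491 in serum Tdg and 60 summing to 1174 in serum-2i Tdg, the highest sum of any member in that group. The ratio between the media was 0.54 (0.43 to 0.64), under 2-fold, and between genotypes in serum-2i 1.19 (0.86 to 1.55). By number of sites the genotype ratio was 0.95 and no longer called. A run of 9 sites in 804 bp (chr6:4733078-4733881) summed to 259.5 in serum-2i Tdg and 111.5 over 4 sites in serum Tdg.

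Igf2r and Airn, the clearance receptor for IGF2 and the antisense RNA that silences it on the paternal allele, differed little between the media. Igf2r (chr17:12682406-12769706) had 7 sites summing to 52 in serum-2i wt, 21 summing to 284.5 in serum Tdg and 30 summing to 471.5 in serum-2i Tdg, a ratio of 0.01 (-0.14 to 0.16). Airn (chr17:12741311-12859884) had 6 summing to 65.5, 28 summing to 402.5 and 45 summing to 798.5, a ratio of 0.27 (0.14 to 0.39), and -0.11 outside other gene spans. Of their positions 25 were shared. The member position with the highest coverage of all, chr17:12853287 in Airn, had 30 in serum-2i wt, 12.5 in serum Tdg and 141 in serum-2i Tdg.

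The members of the 2 domains on proximal and central chromosome 7 had few sites. Peg3 (chr7:6703892-6730462), a zinc-finger protein gene, had 4 sites summing to 40.5 in serum-2i Tdg and none elsewhere, and Zim1 (chr7:6674444-6696540) had 1 of 20.5 in serum Tdg and 3 summing to 33 in serum-2i Tdg. The 60.0 kb holding both had 15.0 sites per 100 kb in serum-2i Tdg. This did not extend to Usp29, an imprinted gene outside the set whose span holds 1 Peg3 position. Usp29 had 33 sites in serum Tdg and 143 in serum-2i Tdg over 237 kb. Snrpn, the spliceosomal protein gene whose RefSeq span runs over 468 kb (chr7:59982495-60450177), had 1 site of 6 in serum Tdg and 8 summing to 95.5 in serum-2i Tdg, a ratio of 3.27 (2.43 to 4.25). The Snrpn call ended when sites were counted (2.12, with an interval that includes no difference), and all 9 positions also lay within Snhg14. From Snrpn to Mkrn3, 2442 kb in all, serum-2i Tdg cells had 1.19 sites per 100 kb, against 27.7 over chromosome 7.

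The MAGE-family genes Ndn and Magel2 and the makorin gene Mkrn3 at the far end of that domain had 9 positions between them. Ndn (chr7:62348277-62349928) had 4 sites summing to 51.5 in serum Tdg and 1 of 17.5 in serum-2i Tdg. Magel2 had 2 sites in either Tdg group, summing to 23.5 and 32, and Mkrn3 had 2 in serum-2i Tdg, summing to 16. None had a wt site, and all 9 lay in the span of Gm32061. The log2 ratio between the media was -2.28 (-2.88 to -1.71) for Ndn and -0.28 (-0.84 to 0.30) for Magel2, both below the coverage set for a call.

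Among the members that stand alone in this set, Slc38a4, an amino acid transporter gene (chr15:96994816-97055956), was the only 1 called higher in serum-2i. It had 7 sites summing to 55 in serum-2i wt, 19 summing to 268 in serum Tdg and 60 summing to 1044.5 in serum-2i Tdg, a ratio between the media of 1.24 (1.10 to 1.38), and 29 of its 69 positions lay in the span of Gm32840. By number of sites the ratio was 0.78 and not called. Against wt cells in serum-2i its ratio was 0.45 (0.18 to 0.74), called higher from a coverage of 10 upward (1.44) and -0.21 outside other gene spans.

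Rasgrf1 and Inpp5f were lower in serum-2i. Rasgrf1 (chr9:89909508-90026979), a Ras exchange factor gene, had 5 sites summing to 37 in serum-2i wt, 26 summing to 450 in serum Tdg and 18 summing to 352 in serum-2i Tdg, a ratio of -1.08 (-1.22 to -0.93). That call lay at the edge of the rule and ended without the highest site (-0.94) or from a coverage of 10 upward (-0.84). Its serum Tdg sites included a run of 11 in 176 bp, which began 1.47 kb into the span and summed to 211.5, against 26.5 over 2 sites in serum-2i Tdg.

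Inpp5f (chr7:128611181-128696436), a phosphoinositide phosphatase gene, had 4 sites summing to 39 in serum-2i wt, 25 summing to 845 in serum Tdg and 27 summing to 530 in serum-2i Tdg. The ratio between the media was -1.39 (-1.51 to -1.28), and by number of sites -0.77 and not called. A run of 6 sites in 139 bp (chr7:128672074-128672212) was listed in both media with all 6 sites, at a sum of 303 in serum Tdg and 156 in serum-2i Tdg. It contained the site with the highest serum Tdg coverage of any member, chr7:128672157, at 105.5 against 55 in serum-2i Tdg.

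Inpp5f also had the only member promoter in which several CGs were listed in serum-2i Tdg cells. In the RefSeq window (chr7:128611115-128611414, plus strand) the listed CGs are in capitals:
Inpp5f: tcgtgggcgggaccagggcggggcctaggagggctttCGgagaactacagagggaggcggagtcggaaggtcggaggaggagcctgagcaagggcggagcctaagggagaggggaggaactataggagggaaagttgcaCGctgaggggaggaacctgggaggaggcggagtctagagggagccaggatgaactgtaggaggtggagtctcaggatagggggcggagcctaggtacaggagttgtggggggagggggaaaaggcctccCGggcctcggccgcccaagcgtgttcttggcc
Counted from the start, the listed CGs lay 213 and 111 bases before it and 18 bases after it. Their coverage in serum-2i Tdg cells was 18, 13.5 and 12.5, and the first and last were listed in serum Tdg cells at 21 and 24.5. The other 12 CGs were unlisted in every group.

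Mest, Plagl1 and Grb10 had ratios within 2-fold in both comparisons, but each passed 2-fold under some alternative. Mest (chr6:30733506-30748466), of the alpha/beta hydrolase family, had 6 sites summing to 34 in serum-2i wt, 13 summing to 228 in serum Tdg and 14 summing to 240 in serum-2i Tdg, with ratios of -0.65 (-0.84 to -0.46) between the media and -0.97 (-1.34 to -0.59) between genotypes. Plagl1 (chr10:13090832-13131694), a zinc-finger transcription factor gene, had 3 summing to 27.5, 15 summing to 279.5 and 40 summing to 694, with 0.59 (0.45 to 0.73) and 0.86 (0.47 to 1.28). Grb10 (chr11:11930499-12037428), an adaptor that limits insulin receptor signalling, had 5 summing to 54, 22 summing to 415.5 and 43 summing to 594, with -0.21 (-0.34 to -0.08) and -0.33 (-0.62 to -0.04). Within 1 kb of starts or span ends, the media ratio was -1.83 for Mest and -4.04 for Grb10, both called lower, and without flanks the media ratio of Grb10 was 0.16. The genotype ratio of Mest was called lower without flanks (-1.18), that of Plagl1 higher without its highest site (1.68) or with median-ratio scaling (1.04), and that of Grb10 lower from a coverage of 10 upward (-1.37).

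The other members had 5 positions or fewer. Nnat, which encodes neuronatin, had 1 site of 6 in serum-2i wt, 4 summing to 44.5 in serum Tdg and 2 summing to 21.5 in serum-2i Tdg. All its positions lay in its flanks and in the span of Blcap, which surrounds it. Zrsr1, a retrogene inside Commd1, had 1 of 4.5 in serum-2i wt and 1 of 7.5 in serum-2i Tdg. Impact, an inhibitor of the kinase GCN2, had 1 of 6.5 in serum-2i wt and 2 summing to 21.5 in serum-2i Tdg. None of these reached the coverage set for a call.

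Sites near transcription starts took a larger part of the serum Tdg sites of these genes than of their serum-2i Tdg sites. Among the 26 members with a start in the RefSeq promoter table, 81 of 370 serum Tdg sites (21.9%, 17.8 to 26.5) lay within 1 kb of a start, against 29 of 444 serum-2i Tdg sites (6.53%, 4.42 to 9.25). Over all protein-coding genes the same shares were 14.6% and 4.80%, and the share in serum-2i Tdg cells was the lower there too. How the members compared with protein-coding genes depended on the window. Within 500 bases the serum Tdg share of the members was 10.5% (7.60 to 14.1) against 8.77%, and the serum-2i Tdg share 2.70% (1.40 to 4.67) against 2.60%. Within 2 kb the shares were 41.1% (36.0 to 46.3) against 23.5% and 16.0% (12.7 to 19.7) against 9.61%. The members' interval thus lay above the protein-coding value at 1 kb in serum Tdg alone, at 2 kb in both groups and at 500 bases in neither. H19, Cdkn1c, Rtl1, Nespas, Peg10, Sgce and Impact had no start in the table.

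Promoter windows of the genes listed as having their start in a region methylated in the egg were without listed CGs. A list drawn from textbook knowledge, made by gene and perhaps incomplete, puts the start of 12 members in such a region. Of these, 9 (Kcnq1ot1, Peg3, Snrpn, Airn, Nnat, Mcts2, Mest, Plagl1 and Zrsr1) had 14 promoter windows in the table with 144 CGs. All RefSeq starts of these genes were taken, so a gene such as Snrpn or Mest enters with several windows, and some of these may lie outside the methylated region. None of the 144 was listed in any group. The other 27 member windows may also hold starts in such regions, for instance at Gnas. Of their 417 CGs, 2.88% were listed in serum Tdg and 1.20% in serum-2i Tdg. Over all 32851 windows the shares were 2.89% and 1.87%. For windows of 10 to 19 CGs, which hold 57 of the 144, the shares over all windows were 5.81% and 2.52%. For windows of 20 to 29 CGs, which hold 51 of the 144, they were 1.68% and 0.241%, and for windows of up to 9, which hold 36, 6.48% and 7.47%. The listing rule leaves values under the minimum unseen, and windows of 1 gene can overlap, so these are descriptions of a small set.

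Wider surroundings of these starts differed from gene to gene. At 9 of the 14 starts (64.3%) no position within 1 kb was listed in any group, against 16 of all 41 member starts (39.0%) and 48.5% of all starts. These 9 include all 4 starts of Snrpn and the adjacent Mest starts at chr6:30738050 and chr6:30738053, so they stand for fewer genes. The Snrpn starts lay in gaps of 146 to 630 kb, within a domain that had few sites throughout. Around the later Mest start the stretch free of Tdg sites ran over 6.04 kb, around Kcnq1ot1 4.97 kb, around Peg3 8.99 kb and around Mcts2 15.6 kb. By contrast the earlier Mest start had 9 positions within 1 kb, Nnat 3 and Airn 3.

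The ZFP57 motif was searched as the letters TGCCGC on both strands, which read GCGGCA on the other strand. It occurred in 6 of the 14 windows (42.9%), in 10 of all 41 member windows (24.4%) and in 11.6% of all 32851 windows of the same length. The 6 include overlapping Mest windows that hold the same matches. The motif contains a CG, and over all windows its share was 3.26% at up to 9 CGs, 14.1% at 10 to 19 and 23.2% at 20 to 29. In the same classes it occurred in 14.3% of 7, 60% of 5 and 100% of 2 of the 14 windows. No listed CG of a member promoter lay within a match. Few were listed at all, 12 of 561 in serum Tdg and 5 in serum-2i Tdg, so nothing about the motif follows from this. A match is a description of the letters, not evidence of binding. The windows of Mest, Nnat and Plagl1 are shown as examples with the matches in capitals, and hold no listed CG.
Mest (chr6:30737800-30738099, plus strand): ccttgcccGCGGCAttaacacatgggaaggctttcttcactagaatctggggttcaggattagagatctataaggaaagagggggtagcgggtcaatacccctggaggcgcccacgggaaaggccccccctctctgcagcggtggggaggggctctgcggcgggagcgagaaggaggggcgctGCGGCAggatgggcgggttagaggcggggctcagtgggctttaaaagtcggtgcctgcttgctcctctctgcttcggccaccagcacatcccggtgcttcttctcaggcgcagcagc
Nnat (chr2:157559828-157560127, plus strand): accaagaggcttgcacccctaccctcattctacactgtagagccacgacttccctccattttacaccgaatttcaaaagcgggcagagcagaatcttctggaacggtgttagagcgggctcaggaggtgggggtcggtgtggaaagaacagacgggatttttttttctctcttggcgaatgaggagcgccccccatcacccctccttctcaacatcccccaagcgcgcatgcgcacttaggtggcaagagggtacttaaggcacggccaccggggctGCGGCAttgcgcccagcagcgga
Plagl1 (chr10:13090582-13090881, plus strand): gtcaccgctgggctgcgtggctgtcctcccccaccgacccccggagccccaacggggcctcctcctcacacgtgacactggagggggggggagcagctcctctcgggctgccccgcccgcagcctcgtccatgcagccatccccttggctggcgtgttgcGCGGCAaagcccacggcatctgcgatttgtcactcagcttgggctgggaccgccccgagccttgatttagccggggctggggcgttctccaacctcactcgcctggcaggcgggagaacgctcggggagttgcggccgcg
In these letters Mest has 2 matches and the other windows 1 each.

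Imprinted genes beyond the 33 also had ratios on both sides. Of 46 further imprinted genes, 44 had a listed site and 37 could be compared between the media in Tdg cells. Of these, 14 were higher in serum-2i, 10 lower and 13 between, with a median log2 ratio of 0.09. Over all genes compared, 27.3% were higher and 27.4% lower. The lowest were Klf14 at -5.78 and Kcnk9 at -4.25, and the highest Copg2 at 2.86 and Cpa4 at 2.67. Between genotypes in serum-2i, 32 could be compared, with 8 higher in Tdg cells, 3 lower and 21 between, against 12.8% higher and 21.2% lower over all genes. The lowest there were Blcap and Kcnk9, both at -1.50, and the highest Atp10a at 1.88 and Nap1l4 at 1.67.

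Among 12 genes whose products maintain imprints, 11 could be compared between the media in Tdg cells, with 3 higher in serum-2i, 1 lower and 7 between. The shares over all genes were 27.3% higher and 27.4% lower there, and 12.8% and 21.2% between genotypes in serum-2i. Setdb1, which encodes the histone methyltransferase recruited by TRIM28, was highest at 2.73 (1 site in serum Tdg, 11 in serum-2i Tdg), followed by Ctcf, the insulator protein gene, at 1.46. The lowest were Dppa3, whose product protects maternal methylation in the zygote, at -1.89, and Trim28 itself at -0.99. Between genotypes in serum-2i 8 could be compared, of which none was higher in Tdg cells, 2 were lower and 6 lay between, with Ctcf at -1.63 and Ctcfl at -1.44 lowest and Arid4a at 0.61 and Arid4b at 0.60 highest.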

How the data were processed

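5caC was mapped at CG positions of DNA from mouse embryonic stem cells, in 10 samples of 5 groups with 2 technical replicates each. Glycosylation masked 5-hydroxymethylcytosine and methylation masked bare CGs, per the labels' protocols. The enzyme eM.SssI then decarboxylated 5caC and left an azide, to which a biotinylated oligonucleotide was coupled for capture, priming and Ion Proton sequencing. The reads were placed on mm10, per the submitters' processing notes, and neither aligner nor site caller is given in the sources used here. The deposited values are coverage per listed CG position and group, multiples of 0.5, read as the mean of 2 replicates; 4 groups are in the table, and the control group is not analysed here. Values per replicate were not used here, and the replicates are technical, so the spread between cultures enters nowhere.

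In the promoter windows, all 14134 listed positions had the C of a CG 1 base above the deposited number, so the deposited positions count from 0, and they are printed here counted from 1. Gene spans, promoter windows (250 bases before to 50 after a start) and hairpins came from RefSeq tables of GRCm38.p6, the assembly of mm10. Exons, introns and a genome sequence were not used here. All 33 members matched a RefSeq gene. Each span was extended by 2 kb, sites in overlapping spans counted for each gene, and sums over all members counted each position once.

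Each comparison used the log2 ratio of shares of summed listed coverage, with a Clopper-Pearson interval at 95% on coverage summed over replicates, for 23862 genes with a mean of at least 20. Calls needed a 2-fold difference and an interval without 0. A run has at least 5 sites, each no more than 200 bases from the next. Members and gene lists were chosen with earlier results of these data known. Values were given in full for members with at least 20 listed sites over all groups or a called ratio. Intervals and calls were run on simulated counts with counting error alone. These held no listing minimum, no PCR copies and no replicate spread, so they show only that the calculation works. Python 3.11.15, pandas 2.3.3 and scipy 1.17.1 were used.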

Additional observations from a re-analysis of the deposited data

Results flagged for a closer look

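In Sgce the difference between media, and that between genotypes, pointed opposite ways in the other pair of groups. Serum-2i against serum gave a log2 ratio of coverage shares of -1.48 in wt cells and 0.54 in Tdg cells. Tdg against wt gave -0.82 in serum and 1.19 in serum-2i. The medians over all genes compared were -1.78 over 4435 genes for the media in wt cells and -1.38 over 4986 genes for Tdg against wt in serum, so negative values in those comparisons are not particular to Sgce. The difference between these ratios was not tested, since each group has 1 value. The serum wt value rests on 1 site of coverage 5, and its interval for the genotype ratio in serum, -1.71 to 0.24, includes no difference.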

How the results depend on the processing

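No paired analysis was possible because the table holds 1 value per group and none per replicate, and leaving out a replicate could not be run for the same reason. For all member sites, the log2 ratio between media in Tdg cells was -0.33 without flanks, -0.63 with 5 kb, -0.61 outside other gene spans and -2.30 within 1 kb of starts or span ends. The restriction to 1 kb was not applied to all genes. Tdg against wt in serum-2i gave -0.25 with 5 kb, -0.39 from a coverage of 10 upward, 0.03 with median-ratio scaling, 0.00 by number of sites, -0.23 outside other spans and -0.87 within 1 kb. Of the 13 members called between media, 3 (Igf2, Dio3 and Gnas) were called under all 8 alternatives, and no called ratio changed sign; of the 4 called between genotypes, 0 were, and by number of sites 0 members were called. The share of member sites near starts was 10.5% within 500 bases and 41.1% within 2 kb in serum Tdg, and 2.70% and 16.0% in serum-2i Tdg; the windows themselves differ in length. Whole domain intervals, chosen after seeing the data, gave 1.04 for Snrpn to Ndn in place of 0.27, and turned the sign for Dlk1 to Dio3 between media; between genotypes in serum-2i they turned H19 to Igf2 from -0.34 to 0.23. An alternative gave no value where it left a gene no listed coverage in a group. Listing from a minimum upward limits every ratio: low coverage in either group is unseen, and the minimum was lower in wt than in Tdg cells.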
